A study of Mus musculus with 2 samples.

Results

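The matrix metalloproteinases are zinc-dependent enzymes that cut collagens and other proteins of the extracellular matrix. The mRNA of 10 of them (Mmp2, Mmp3, Mmp9, Mmp10, Mmp11, Mmp13, Mmp14, Mmp16, Mmp19 and Mmp23) was followed in apoptotic osteoblasts, out of 55487 genes in the table. They were taken by gene symbol, and each symbol matched 1 Ensembl identifier. A mean of at least 1 FPKM (fragments per kilobase of transcript, scaled to library depth) over both libraries was required for a gene to enter the counts and medians. This level was reached by 8 of the 10, and Mmp3 and Mmp10 stayed under it.

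The apoptotic osteoblasts (apoOBs) came from old mice and from young mice, with 1 library for each age. Adherent cells that grew out of cut bone were passaged and given osteogenic medium for 3 days. After 0.5 h of ultraviolet light, over 90% were stained by Trypan Blue, which dead cells fail to keep out. The treatment label reads day 5 for the old library and day 0 for the young one, while the treatment protocol of both reads none. What the day counts is not stated, and age and day label cannot be told apart. Strain, sex, age in months and the number of animals behind a library do not appear in the labels. The library size that the FPKM values imply, worked back from what 1 read is worth, was 18114336 reads in the old library and 16333396 in the young. No difference has a replicate check, no test was run, and every statement compares these 2 libraries. Values in brackets are the 95% limits that read counting alone sets on a ratio of FPKM, old over young. In cultures measured whole, fewer cells of a type and less RNA per cell cannot be told apart.

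Most metalloproteinases are made as inactive precursors whose propeptide must be removed, and the tissue inhibitors of metalloproteinases (TIMPs) bind the active enzymes. At the cell surface the membrane-anchored Mmp14, together with Timp2, turns the precursor of Mmp2 into active enzyme. In bone, Mmp13 is the collagenase of osteoblasts and of hypertrophic chondrocytes, with known binding sites for AP-1 and Runx2 in its promoter. Mmp9 is best known there from osteoclasts.

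The promoters of 4 genes are shown to set their sequence beside their levels. Mmp13, Mmp3 and Mmp10 lie in 1 cluster on chromosome 9 and each carry an AP-1 motif and a TATA motif, while Mmp13 had 283 reads in the old library and 667 in the young, Mmp3 had 2 and 0 in that order, and Mmp10 had 0 in both. Mmp14 is shown as an abundant gene whose promoter has a higher GC content. Each sequence is the stretch of 250 bases before the RefSeq start site (GRCm38.p6), on the gene's own plus strand, 5′ to 3′, and the capitals mark the motifs searched.
Mmp13: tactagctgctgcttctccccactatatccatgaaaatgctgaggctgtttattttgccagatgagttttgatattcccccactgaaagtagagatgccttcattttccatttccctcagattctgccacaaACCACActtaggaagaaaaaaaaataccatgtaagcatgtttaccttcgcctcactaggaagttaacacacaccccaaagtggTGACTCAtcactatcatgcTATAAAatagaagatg
Mmp3: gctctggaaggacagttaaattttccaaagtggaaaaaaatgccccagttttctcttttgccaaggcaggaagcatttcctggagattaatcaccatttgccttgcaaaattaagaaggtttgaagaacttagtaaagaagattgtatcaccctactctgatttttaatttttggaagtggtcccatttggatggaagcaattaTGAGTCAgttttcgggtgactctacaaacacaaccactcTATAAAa
Mmp10: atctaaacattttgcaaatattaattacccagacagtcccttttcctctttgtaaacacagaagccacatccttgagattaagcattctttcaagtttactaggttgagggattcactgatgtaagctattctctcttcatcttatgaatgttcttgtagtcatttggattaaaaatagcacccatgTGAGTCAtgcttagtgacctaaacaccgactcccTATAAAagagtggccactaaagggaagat
Mmp14: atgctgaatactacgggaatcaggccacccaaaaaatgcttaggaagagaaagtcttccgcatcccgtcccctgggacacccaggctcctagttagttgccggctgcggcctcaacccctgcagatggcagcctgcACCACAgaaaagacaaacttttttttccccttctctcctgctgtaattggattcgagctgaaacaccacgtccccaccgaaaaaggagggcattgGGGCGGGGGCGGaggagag

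These stretches lie at chr9:7272264-7272513 for Mmp13, chr9:7445572-7445821 for Mmp3, chr9:7502092-7502341 for Mmp10 and chr14:54431348-54431597 for Mmp14. The AP-1 motif searched for was TGANTCA. For Runx factors the letters were ACCACA. The TATA motif was taken as TATAAA. The GC box was taken as GGGCGG. Each was searched on both strands. RefSeq promoters matched 6 of the 10 genes, which include Mmp11 and Mmp23, and none was matched for Mmp2, Mmp9, Mmp16 and Mmp19. The AP-1 motif was present in 3 of these 6, at position −35 in Mmp13, −46 in Mmp3 and −63 in Mmp10, counted back from the start site. The same 3 genes held the TATA motif, at −16, −7 and −29 in that order of genes. Runx motifs stood at −118 in Mmp13, −114 in Mmp14 and −177 in a window of Mmp23. Mmp23 had 2 windows, and the other held none of the motifs. GC boxes stood at −19 and −13 in Mmp14 and at −52 and −19 in Mmp11. No matches in these windows overlapped one another. Over all 32851 promoter windows of that length, 6.75% held the AP-1 motif, 14% the Runx motif, 12.4% the TATA motif and 32.7% the GC box. These shares are of windows, while the 3 of 6 above is of genes, and those 3 genes lie in the same cluster. GC content was 40.4% for Mmp13, 37.6% for Mmp3 and 37.2% for Mmp10, against 55.2% for Mmp14 and 63.2% for Mmp11. It was 61.2% and 62% in the 2 windows of Mmp23, a gene at only 0.963 FPKM (old) and 1.40 FPKM (young).

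In the old library Mmp19 was at 2.94 times its level in the young library and Mmp13 at 0.383 times. Mmp9 and Mmp16 were also higher in the old library, at 1.79 and 1.55 times. Mmp2 and Mmp14, which made up 92.8% of the summed FPKM of the 10 genes in the old library and 93.7% in the young, had ratios of 1.07 and 1.10. Of the 8 measured genes, 1 (Mmp19) was at least 2-fold higher on the scale of log2(FPKM + 1), against a background of 1.97% of all 12561 measured genes, and 1 (Mmp13) was 2-fold lower, against 0.868%; 2.84% of all genes were past 2-fold either way. Their median log2 ratio was 0.11, with values between −1.25 and 1.47, and the median over all measured genes was −0.07. Together the reads of the 10 genes came to 0.255% of the implied library size in the old library and 0.235% in the young.

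**Figure D1:**
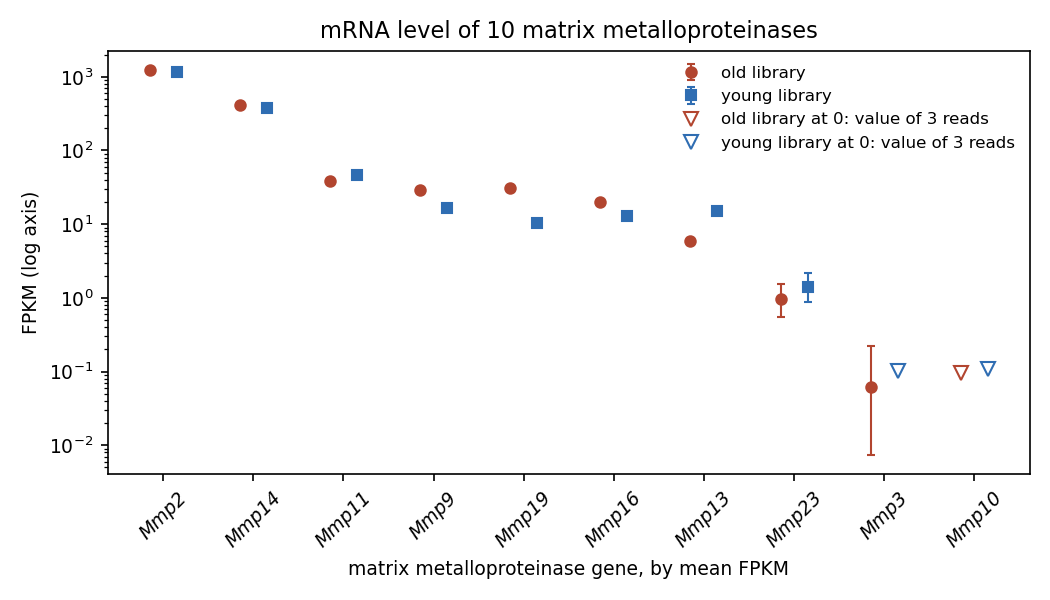
FPKM of each gene (log axis) in the old library (red circles) and the young library (blue squares), ordered by mean; bars are 95% counting intervals, and open triangles show what 3 reads would be worth where a gene is listed at 0. Mmp2 and Mmp14 stand above all others in both libraries, and among genes over 1 FPKM the widest gap with the old value below is that of Mmp13.

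Gelatinases cut denatured collagen and the type IV collagen of basement membranes. Mmp2 (ENSMUSG00000031740, chromosome 8, 92827291 to 92853420, GRCm38) was the most abundant member, at 1224 FPKM in the old library and 1149 FPKM in the young. It ranked 58 of all genes by FPKM in the old library and 71 in the young. Its ratio of 1.07 [1.05 to 1.08] rested on 31954 reads (old) and 27048 reads (young), and the log2 ratio was 0.09. The interval is narrow because of the many reads and leaves out 1, but it says nothing of the spread between cultures.

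Mmp9 (ENSMUSG00000017737, chromosome 2, 164940780 to 164955850), the gelatinase of osteoclasts and neutrophils, was at 29.5 FPKM in the old library and 16.5 FPKM in the young. The old value was the higher one, on 691 reads (old) against 348 (young), with a ratio of 1.79 [1.57 to 2.04] and a log2 ratio of 0.80, just short of 2-fold. Among all 12561 measured genes this ratio ranked 406 from the highest. Of 6 osteoclast markers, 5 had at most 3 reads in either library, with Calcr and Ocstamp at 0 in both. The remaining marker, the collagen-cutting protease Ctsk, was at 48 FPKM in the old library and 51.7 FPKM in the young. Of 6 neutrophil markers, 4 were at 0 in both libraries, S100a8 had 1 read in the old library and 0 in the young, and Camp had 7 (old) and 2 (young). The summed FPKM was 48.1 in the old library and 51.9 in the young for the osteoclast markers, and 0.622 (old) and 0.162 (young) for the neutrophil markers. For the monocyte and macrophage markers it was 22.9 (old) and 25.9 (young), from Lyz2 and Cd68 almost alone. Csf1r had 6 reads (old) and 1 read (young), Adgre1 was at 0 in both, and Ptprc had 0 reads (old) and 1 read (young). Itgam was listed at 0 in both, but other genes share 80.5% of its 50-base words and overlap 68.7% of its exon bases. The part of these cells in the difference of Mmp9 was not tested.

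Membrane-type metalloproteinases stay anchored at the cell surface. Mmp14 (ENSMUSG00000000957, chromosome 14, 54431612 to 54445364), which cuts fibrillar collagen there and activates Mmp2, was at 412 FPKM in the old library and 376 FPKM in the young. The 10585 reads (old) and 8711 reads (young) gave a ratio of 1.10 [1.06 to 1.13] and a log2 ratio of 0.13, close to that of Mmp2. Mmp2 stood at 2.97 times the FPKM of Mmp14 in the old library and 3.06 times in the young. The proportion of the mRNA of these enzymes, which act in 1 activation step, was thus nearly the same in both libraries.

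Mmp16 (ENSMUSG00000028226, chromosome 4, 17852893 to 18119145), another membrane-anchored enzyme that can activate Mmp2, was far less abundant, at 20.2 FPKM in the old library and 13.0 FPKM in the young. It had 881 reads (old) and 512 reads (young), a ratio of 1.55 [1.39 to 1.73] and a log2 ratio of 0.60. The old value was higher, and the whole interval lay between even and 2-fold.

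Mmp13 (ENSMUSG00000050578, chromosome 9, 7272514 to 7283331), the collagenase, was at 5.84 FPKM in the old library and 15.3 FPKM in the young. The old value was the lower one, by more than 2-fold, on 283 reads (old) against 667 (young). The ratio was 0.383 [0.332 to 0.440] and the log2 ratio −1.25, which ranked 54 from the lowest of all measured genes. A pseudocount of 5 FPKM in place of 1 brought the log2 ratio to −0.90, under 2-fold. Mmp13 has 1 annotated transcript, no exon overlap with another gene and none of its tested 50-base words shared with one.

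Genes known to govern Mmp13 did not all stand on the same side. The lineage factor Runx2, which binds its promoter in osteoblasts, was at 72.7 FPKM in the old library and 92.1 FPKM in the young (log2 ratio −0.34). Sp7, a transcription factor of the osteoblast lineage, was at 28.9 FPKM (old) and 55.5 FPKM (young). Fos and Junb, subunits of AP-1, were lower in the old library, at 159 FPKM (old) against 239 FPKM (young) and at 196 FPKM (old) against 310.1 FPKM (young). Another AP-1 subunit, Fosl1, was higher at 28.0 FPKM (old) against 5.68 FPKM (young), though exons of another gene, Ccdc85b, overlap 57.2% of its exon bases. Ccdc85b had 1622 reads (old) and 1310 reads (young), against 460 (old) and 84 (young) for Fosl1. The AP-1 subunit Fosl2, with no exon overlap, was also higher, at 33.1 FPKM (old) against 20.1 FPKM (young). Of the 14 transcription factors listed for metalloproteinase promoters, 8 had a log2 ratio above 0 and 6 below. The parathyroid hormone receptor Pth1r, through which the hormone induces Mmp13 in osteoblasts, was at 20.2 FPKM in the old library and 24.4 FPKM in the young. Il1r1, from the same list of receptors, was higher, at 10.1 FPKM (old) against 6.09 FPKM (young). Of the 6 receptors in that list, 4 had a log2 ratio above 0 and 2 below. Of the chondrocyte markers, Acan was at 0 in both libraries and Col10a1, the collagen of hypertrophic chondrocytes, had 1 read in the old library and 0 in the young, while Sox9 (51.0 FPKM in old, 44.9 FPKM in young) and Col2a1 (46.8 FPKM in old, 53.3 FPKM in young) were well above 1 FPKM. The part of any of these in the difference of Mmp13 was not tested.

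Stromelysins cut proteoglycans and fibronectin, and some of them activate other metalloproteinases. Mmp11 (ENSMUSG00000000901, chromosome 10, 75923222 to 75936496), which is activated inside the cell by furin, was the third most abundant member, at 38.8 FPKM in the old library and 45.8 FPKM in the young. The old value was slightly lower, with 757 reads (old) and 805 reads (young), a ratio of 0.848 [0.767 to 0.938] and a log2 ratio of −0.23. Furin itself was at 40.3 FPKM in the old library and 36.4 FPKM in the young.

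Mmp3 (ENSMUSG00000043613, chromosome 9, 7445822 to 7455975) and Mmp10 (ENSMUSG00000047562, chromosome 9, 7502352 to 7510240) were close to or at 0. Mmp3 had 2 reads in the old library, 0.0613 FPKM, and was listed at 0 in the young. Mmp10 was listed at 0 in both, where 3 reads would have been worth 0.0962 FPKM in the old library and 0.107 FPKM in the young. No ratio was formed for either gene, since both libraries lay at or under 3 reads. No difference in either stromelysin was detectable at this depth, and 9.86% of the 50-base words of Mmp3 and 8.96% of those of Mmp10 are shared with transcripts of other genes.

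Mmp19 (ENSMUSG00000025355, chromosome 10, 128790910 to 128800824), a secreted enzyme with basement membrane proteins among its substrates, was at 30.7 FPKM in the old library and 10.5 FPKM in the young. The old value was the higher one, by more than 2-fold, on 1111 reads (old) against 341 (young). The ratio was 2.94 [2.60 to 3.33] and the log2 ratio 1.47, which ranked 98 from the highest of all measured genes. Exons of other genes overlap Mmp19 over 28.3% of its exon bases, and Tmem198b on the opposite strand overlaps 22.3% of its exon bases. Tmem198b itself was at 16.2 FPKM in the old library and 14.6 FPKM in the young, so its own values were nearly even. The labels do not say whether counting used the strand, and reads in the shared bases cannot be assigned to 1 of these genes without it. With such overlapped genes left out, Mmp19 had no value and 0 metalloproteinases were 2-fold higher.

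Mmp23 (ENSMUSG00000029061, chromosome 4, 155650655 to 155653384), a short membrane-bound member that lacks the hemopexin domain of most others, was near the lower limit. Its values were 0.963 FPKM in the old library and 1.40 FPKM in the young, on 16 reads (old) and 21 reads (young). The ratio of 0.687 [0.335 to 1.38] had an interval that held 1, so no difference was detectable at this depth. Its log2 ratio was −0.29.

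**Figure D2:**
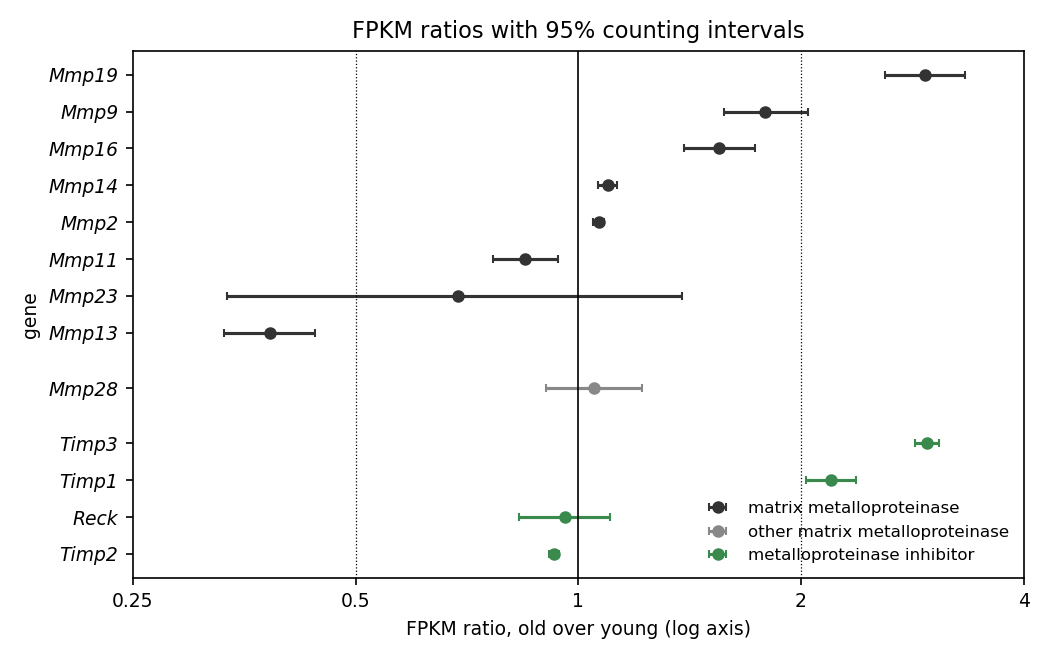
Ratio of FPKM, old over young (log axis), for the 8 measured metalloproteinases (black), Mmp28 (grey) and 4 inhibitors (green); bars are 95% counting intervals and dotted lines mark 2-fold. Mmp19 at 2.94 and Timp3 at 2.96 lie farthest to the right, and Mmp13 at 0.383 farthest to the left.

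The order of levels differed between the libraries below the 3 most abundant genes. In the old library the order was Mmp2, Mmp14, Mmp11, Mmp19, Mmp9, Mmp16, Mmp13 and Mmp23. In the young library Mmp11 was followed by Mmp9, Mmp13, Mmp16, Mmp19 and Mmp23. Mmp3 and Mmp10 came last in both. Neighbours whose counting intervals of FPKM overlapped were Mmp19 and Mmp9 in the old library (28.9 to 32.6 and 27.3 to 31.7 FPKM). In the young library they were Mmp9 and Mmp13 (14.8 to 18.3 and 14.1 to 16.5 FPKM) and Mmp13 and Mmp16 (14.1 to 16.5 and 11.9 to 14.2 FPKM). Mmp19 stood at 5.26 times the FPKM of Mmp13 in the old library and at 0.685 times in the young. Levels depend on the gene length used, which here averaged over the transcripts annotated for a gene. With the longest annotated transcript, a length chosen after seeing the data, the order in the old library was the same. In the young library Mmp13 at 15.3 FPKM then came before Mmp9 at 6.71 FPKM.

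**Figure D3:**
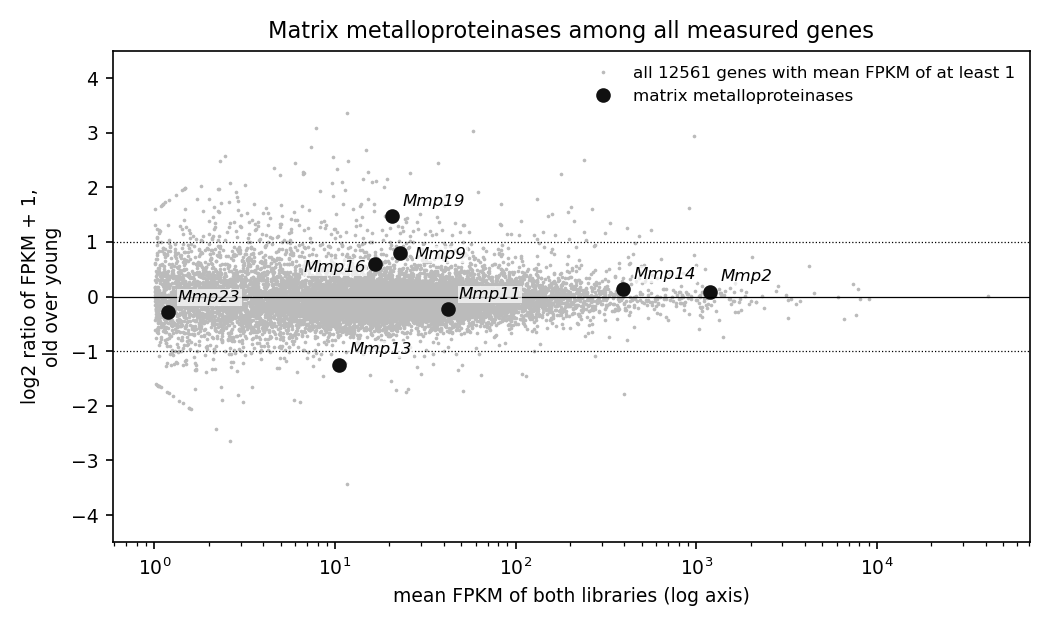
Log2 ratio of FPKM + 1, old over young, against the mean FPKM of both libraries (log axis) for 12561 measured genes (grey) and the 8 measured metalloproteinases (black); dotted lines mark 2-fold. Mmp19 at 1.47 and Mmp13 at −1.25 lie outside the dotted lines, and Mmp2 and Mmp14 lie at the right of the plot near 0.

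Mmp13, Mmp3 and Mmp10 belong to a cluster on chromosome 9 that spans 7272514 to 7699585. It held 10 genes of the family in the annotation, of which 9 were protein coding, and no other protein-coding gene lay within it. Mmp13, at its end nearest the chromosome start, took 97.9% of the cluster's 289 reads in the old library and 98.7% of its 676 reads in the young. Mmp12, the macrophage elastase and the next gene along, had 4 reads in the old library and 9 in the young. Mmp3 had its 2 reads (old) and 0 reads (young), and Mmp1b, Mmp1a, Mmp10, Mmp8, Mmp27, Mmp20 and Mmp7 were listed at 0 in both libraries.

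**Figure D4:**
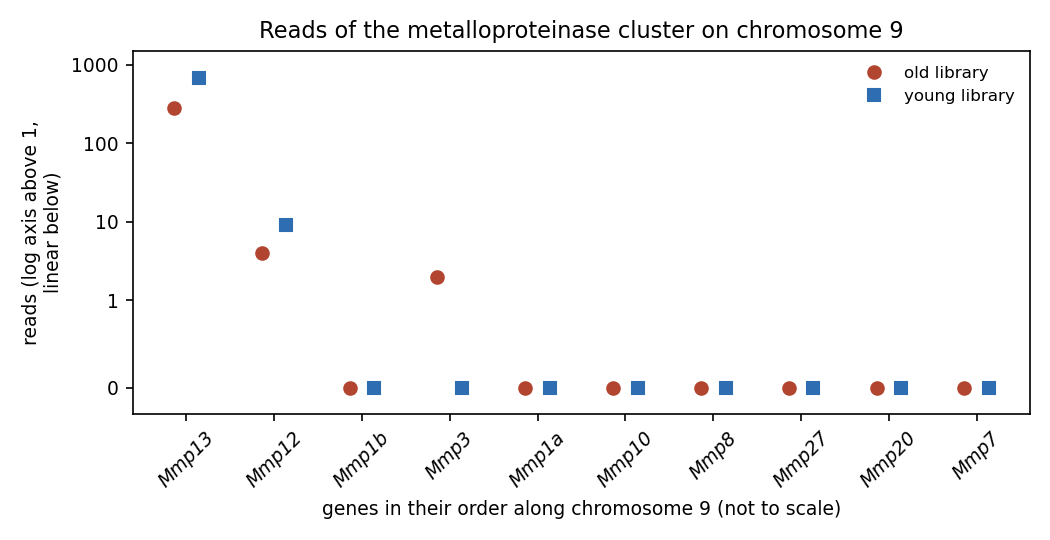
Reads per gene (log axis above 1, linear below) in the old library (red circles) and the young library (blue squares) for the 10 metalloproteinase genes of the chromosome 9 cluster, in their order along the chromosome. Mmp13 has 283 reads in the old library and 667 in the young, and no other gene of the cluster exceeds 9.

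Of the 13 other metalloproteinase genes in the annotation, 1 reached a mean of 1 FPKM and 8 were listed at 0 in both libraries. Mmp28, a secreted enzyme known from epithelia, was at 10.3 FPKM in the old library and 9.85 FPKM in the young, with a ratio of 1.05 [0.905 to 1.22] and 12.0% of its exon bases overlapped. The membrane-anchored Mmp17 was at 0.765 FPKM (old) and 0.606 FPKM (young), Mmp15 at 0.377 FPKM (old) and 0.660 FPKM (young) and Mmp24 at 0.111 FPKM (old) and 0.0742 FPKM (young). The intervals of all 3, and of Mmp12, held 1. Besides the genes of the cluster, Mmp21 and Mmp25 were at 0. The collagenase Mmp8 and the interstitial collagenase genes Mmp1a and Mmp1b were at 0, which leaves Mmp13 as the secreted collagenase gene with reads.

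The endogenous inhibitors were abundant, with Timp1 to Timp4 summing to 1175 FPKM in the old library and 964 FPKM in the young, and the 10 enzymes summing to 1762 FPKM (old) and 1627 FPKM (young). Of the 6 listed, 4 were measured, of which 2 passed 2-fold upward in the old library and 0 downward (1.97% of all measured genes passed upward), with a median log2 ratio of 0.53. With genes of shared or overlapped sequence left out, which removes Timp3, 1 of 3 passed and the median was −0.054. The median was 0.011 over all 6 with no filter and 1.12 over the 3 with a mean of at least 10 FPKM. Timp3, which stays bound to the matrix, was at 290.2 FPKM in the old library and 98.2 FPKM in the young, a ratio of 2.96 [2.85 to 3.07]. Exons of the neuronal gene Syn3 overlap 21.3% of its exon bases, and Syn3 had 5 reads (old) and 2 reads (young). Timp1, a soluble inhibitor, was at 143 FPKM (old) and 65.2 FPKM (young), a ratio of 2.19 [2.03 to 2.37]. Timp2, which helps Mmp14 to activate Mmp2, was the most abundant at 742 FPKM (old) and 800.1 FPKM (young), and the membrane-anchored inhibitor Reck was at 7.19 FPKM (old) and 7.5 FPKM (young). Timp4 had 2 reads in the old library and 1 in the young, and A2m, a plasma protein that traps proteases, was listed at 0.

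Set side by side, the proportions of enzyme to inhibitor differed by pair. Mmp2 stood at 1.65 times the FPKM of Timp2 in the old library and 1.44 times in the young. Mmp14 stood at 1.42 times the FPKM of Timp3 in the old library and 3.83 times in the young. Mmp13 stood at 0.0408 times that of Timp1 in the old library and 0.234 times in the young. Mmp9 stood at 0.206 times that of Timp1 (old) and 0.252 times (young). For Mmp19 over Timp1 the old value was the higher one, at 0.215 (old) and 0.160 (young). These are proportions of mRNA, and neither protein nor enzyme activity was measured. Proportions between genes, and the sums of enzymes and inhibitors, also depend on the gene length used. With the longest annotated transcript, Mmp9 in the old library was at 12.0 FPKM and Timp1 at 139 FPKM, against 29.5 FPKM and 143 FPKM here. The length changes a pair's proportion by the same factor in both libraries.

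Of the activating enzymes, 0 of 5 measured genes (8 were listed) were at 2-fold, against 2.84% of all measured genes either way. Their median log2 ratio was −0.19. Besides Furin, the tissue plasminogen activator Plat was at 16.8 FPKM in the old library and 19.6 FPKM in the young. The urokinase receptor Plaur was at 15.1 FPKM (old) and 17.3 FPKM (young) and the proprotein convertase Pcsk7 at 15.9 FPKM (old) and 19.6 FPKM (young). Plg, the precursor of the metalloproteinase activator plasmin, is a liver product and was listed at 0.

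Surface proteins that dock, clear or induce metalloproteinases had a median log2 ratio of 0.31, with 1 of 6 genes past 2-fold upward, against 1.97% of all measured genes, and 0 downward. This was Lrp1, an endocytic receptor that clears Mmp13 and Mmp9 from outside the cell, at 786 FPKM in the old library and 337 FPKM in the young (ratio 2.33 [2.29 to 2.37]). Bsg, known as an inducer of metalloproteinases, was at 977 FPKM (old) and 1023 FPKM (young). Cd44, which can hold Mmp9 and Mmp14 at the surface, was at 161 FPKM (old) and 129 FPKM (young), and Mrc2, an uptake receptor for collagen fragments, at 145 FPKM (old) and 117 FPKM (young). The integrin chain Itgav was at 72.6 FPKM (old) and 86.2 FPKM (young).

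Substrates of the enzymes had a median log2 ratio of 0.04, where 13 of the 14 listed were measured, 1 of them 2-fold higher, against 1.97% of all measured genes, and 0 lower. With genes of shared or overlapped sequence left out, which removes Spp1, 0 of 12 were 2-fold higher and the median was −0.012. The higher one was Spp1, which encodes osteopontin, a bone matrix protein cut by Mmp3. Spp1 was at 1732 FPKM in the old library and 224 FPKM in the young (ratio 7.74 [7.49 to 8.0]). The annotated gene Gm42793 overlaps 18.8% of its exon bases. Gm42793 had 58 reads (old) and 12 reads (young), against 33348 (old) and 3885 (young) for Spp1. The type I collagen chains, cut by Mmp13 and Mmp14, were lower in the old library. Col1a1 was at 6788 FPKM (old) against 8568 FPKM (young) and Col1a2 at 5636 FPKM (old) against 7482 FPKM (young). Another collagen chain of the list, Col3a1, was higher, at 1155 FPKM (old) against 1008 FPKM (young). Sparc, a collagen-binding protein, was at 2785 FPKM (old) against 3633 FPKM (young), and Fn1, fibronectin, was higher at 1847 FPKM (old) against 1384 FPKM (young).

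Transcription factors with known sites in metalloproteinase promoters had a median log2 ratio of 0.08 over 14 measured genes, 2 of them 2-fold higher, against 1.97% of all measured genes, and 0 lower. With genes of shared or overlapped sequence left out, which removes both, 0 of 11 were 2-fold higher. They were Fosl1, with a ratio of 4.94 [3.91 to 6.31], and Cebpb, at 177 FPKM in the old library and 84.7 FPKM in the young, a ratio of 2.09 [1.98 to 2.20]. Exons of Tmem189 overlap 20.7% of the exon bases of Cebpb. Tmem189 had 805 reads (old) and 828 reads (young), against 4815 (old) and 2081 (young) for Cebpb. The other AP-1 subunits in the list had log2 ratios of −0.66 for Junb, −0.58 for Fos, −0.05 for Fosb, −0.04 for Jund, 0.02 for Jun and 0.69 for Fosl2, and 52.6% of the exon bases of Jund are overlapped. Rela, an NF-kB subunit, was at 85.9 FPKM (old) and 76.9 FPKM (young). Among 6 receptors for hormones and cytokines that regulate metalloproteinases, 0 were at 2-fold, against 2.84% of all measured genes either way. Their median log2 ratio was 0.19. Apart from Pth1r, the most abundant were Tnfrsf1a at 257 FPKM (old) and 233 FPKM (young), Il6st at 55.7 FPKM (old) and 47.0 FPKM (young) and Tgfbr2 at 28.2 FPKM (old) and 20.5 FPKM (young).

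**Figure D5:**
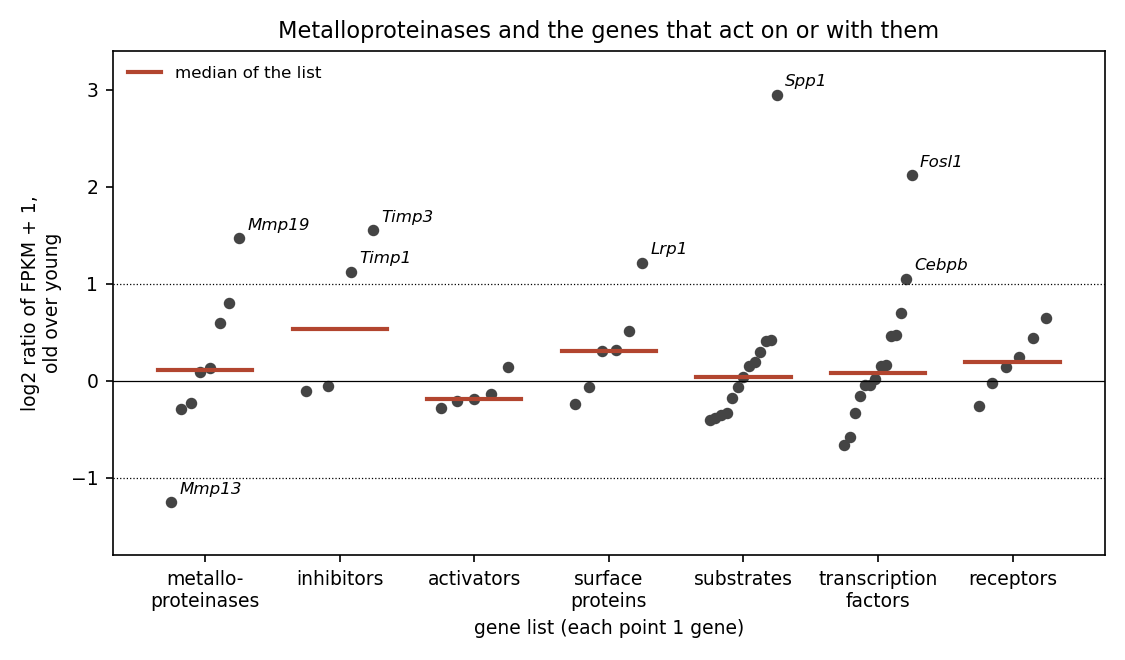
Log2 ratio of FPKM + 1, old over young, of each measured gene (points) in the metalloproteinase list and 6 lists of related genes, with each list's median (red line) and 2-fold marked (dotted lines); genes at 2-fold are named. Mmp13 is the single gene below the lower dotted line, and Timp3, Timp1, Lrp1, Spp1, Fosl1, Cebpb and Mmp19 lie above the upper one.

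The osteoblast label was set against 8 markers. Col1a1, Col1a2, Runx2, Sp7 and Spp1 were well above 1 FPKM in both libraries. Ibsp was at 5.90 FPKM in the old library and 6.31 FPKM in the young, and Alpl at 3.28 FPKM (old) and 2.78 FPKM (young), while Bglap, osteocalcin, had 6 reads (old) and 3 reads (young). Of the 50-base words of Bglap, 55.2% are shared with other genes, so its level is uncertain. Alpl, which marks maturing osteoblasts, was low in both libraries. Of the 7 osteoblast markers measured, 2 had a log2 ratio above 0 and 5 below. Their median was −0.34, against −0.07 over all measured genes. Spp1 was the 1 at 2-fold higher, against 1.97% of all measured genes, and 0 were 2-fold lower. The endothelial markers summed to 0.323 FPKM in the old library and 0.357 FPKM in the young.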

How the data were processed

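The values are FPKM per gene and library, made by the authors and deposited as 1 table. Per the submitters' processing notes, the tools included fastp, STAR, HTSeq and edgeR, and the build was mm10. What each tool did, its version, the annotation, any filter and whether strand was used: each is not given in the sources used here. GENCODE M21, on GRCm38 (mm10), supplied gene symbols, positions and lengths and held 55227 of 55487 identifiers.

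With gene length set to the rounded mean over annotated transcripts, 97.6% of values above 0 were whole reads within 0.01. The value of 1 read gave the implied library sizes, which are scaling sizes and not sums over genes. The reads gave exact Poisson intervals of FPKM and exact Clopper-Pearson intervals (95%) of ratios, and no test was run on them. Since PCR copies of 1 molecule are not independent, the intervals and the floor of 3 reads describe counting error alone. Of 20 housekeeping genes checked, 1 (Mtap) was listed at 0 in both libraries, so a 0 is reported as listed.

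Log2 ratios are log2(FPKM + 1), old minus young, which understates differences of low genes. The plain ratios and their intervals carry no pseudocount, so a log2 ratio is not the logarithm of the ratio beside it. Without the pseudocount the log2 ratio was 1.55 for Mmp19 and −1.39 for Mmp13. With 1 library per age there is no test. Genes at or beyond 2-fold were counted where the mean FPKM reached 1. Shared sequence was found with 50-base words taken every 25 bases. The members and lists were chosen with earlier results of these data known. The genes named are all metalloproteinases and, of each related list, members at 2-fold and up to 4 others of highest mean. Plg, Sp7, Fosb, Jund, Jun, Fosl2, Il1r1, Col3a1, Ccdc85b, Tmem189, Tmem198b, Syn3 and Gm42793 were named after their values were seen. The calculation was tested on simulated data. Alternatives were the pseudocount, the filter, the scaling, the gene length and leaving out genes of shared sequence. Python 3.11.15, NumPy 2.4.6, pandas 2.3.3 and SciPy 1.17.1 were used.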

Additional observations from a re-analysis of the deposited data

How the results depend on the processing

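A change of pseudocount, filter or gene length, or leaving genes out, cannot change the direction of a log2 ratio. Centring and rescaling can, and under both every measured metalloproteinase kept its direction. Centring moved the log2 ratios by only 0.065, less than the 0.09 of Mmp2, the one nearest even. Mmp19 ranged from 1.21 to 1.55 in log2 ratio and Mmp13 from −1.37 to −0.90. At a pseudocount of 5 FPKM, 0 metalloproteinases were 2-fold lower (Mmp13 at −0.90), 101 of all genes were higher and 20 lower. At a pseudocount of 0.1 FPKM, 408 were higher and 236 lower, and with a mean of at least 10 FPKM 106 and 27 of only 8264 genes, against 248 and 109 of 12561 as reported. Without genes of shared or overlapped sequence, Mmp19 was left out, so 0 metalloproteinases were 2-fold higher. In that setting 1 inhibitor, 0 substrates and 0 transcription factors were 2-fold higher, 173 of the 9334 genes left were higher and 70 lower, and the medians were −0.054 for inhibitors and −0.012 for substrates. The inhibitor median was 0.011 with no filter, a value set by A2m and Timp4 at no more than 3 reads. It was 1.12 with a mean of at least 10 FPKM. Centred on the median of all genes, medians were 0.18 for metalloproteinases, 0.37 for surface proteins and 0.10 for substrates. Rescaling without the 10 most abundant genes gave 263 of all genes higher and 125 lower. The longest-transcript length, an alternative chosen after seeing the data, gave 211 and 93 and left Mmp23 out. Neither moved a count of metalloproteinases or of a related list at 2-fold. No paired analysis was possible because each age has 1 library, and no replicate could be left out. Mmp3, Mmp10 and Mmp23 are limited by their few or absent reads, and why Mmp3 and Mmp10 were at or near 0 was not tested.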
